A study of Mus musculus with 6 samples.

Results

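The genes described here are 10 transcription regulators of the immediate early and AP-1 group, namely Jun, Junb, Jund, Fos, Fosb, Fosl2, Egr1, Klf4, Nr4a1 and Ier2. They were taken by symbol from a deposited table of 54100 mouse genes, and each matched 1 row. The libraries came from cryosections of testis, 3 from mice carrying a deletion of H3t and 3 from wild-type (WT) mice. H3t is a histone H3 variant of the testis, and in these animals spermatogenesis is disrupted. The title of the series turns on Leydig cells, which lie between the tubules and make testosterone, and names stress among its subjects. The labels used here give a genotype and a mouse number and no age, strain or litter. They also give no detail of the allele. Each library holds RNA of the whole section, so fewer cells of a type and less RNA per cell cannot be told apart.

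Immediate early genes are transcribed within minutes of a stimulus, by factors that already sit in the cell. AP-1 is a dimer of leucine zipper proteins in which a JUN protein pairs with another JUN, a FOS or an ATF protein. JUN, JUNB and JUND can pair with each other, whereas FOS, FOSB and FOSL2 (also called FRA2) need a JUN partner to bind DNA. EGR1 and KLF4 are zinc finger factors, NR4A1 (NUR77) is an orphan nuclear receptor, and IER2 is a small nuclear protein of the early response. In the mouse testis, luteinizing hormone acting through cyclic AMP induces Nr4a1 in Leydig cells, where the protein binds promoters of steroid synthesis genes, and Klf4 is known as a gene of postmeiotic germ cells and of Sertoli cells.

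Promoters of 4 of these genes are shown because Fos and Junb were higher and Nr4a1 and Klf4 lower in the deletion while all 4 hold the same short element. The sequences are from RefSeq on GRCm38.p6, read 5′ to 3′ on the strand of the gene, from 250 bases before to 50 bases after the annotated start. Capitals mark TGACG, the core of the cyclic AMP response element, and GCGNGGGCG, the EGR binding motif, or their reverse complements.
Fos promoter (chr12:85473640-85473939, plus strand): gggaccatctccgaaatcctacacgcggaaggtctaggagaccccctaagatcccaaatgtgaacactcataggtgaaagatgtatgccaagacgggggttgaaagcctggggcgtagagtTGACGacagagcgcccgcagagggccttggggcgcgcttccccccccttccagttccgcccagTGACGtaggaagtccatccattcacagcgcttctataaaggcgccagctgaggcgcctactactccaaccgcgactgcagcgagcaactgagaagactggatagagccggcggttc
Junb promoter (chr8:84978699-84978998, minus strand): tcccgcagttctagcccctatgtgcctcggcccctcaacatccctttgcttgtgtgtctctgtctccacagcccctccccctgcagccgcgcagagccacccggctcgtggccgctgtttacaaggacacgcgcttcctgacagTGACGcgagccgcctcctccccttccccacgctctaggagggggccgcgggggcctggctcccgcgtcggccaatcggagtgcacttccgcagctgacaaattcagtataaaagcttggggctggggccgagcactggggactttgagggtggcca
Nr4a1 promoter (chr15:101266596-101266895, plus strand): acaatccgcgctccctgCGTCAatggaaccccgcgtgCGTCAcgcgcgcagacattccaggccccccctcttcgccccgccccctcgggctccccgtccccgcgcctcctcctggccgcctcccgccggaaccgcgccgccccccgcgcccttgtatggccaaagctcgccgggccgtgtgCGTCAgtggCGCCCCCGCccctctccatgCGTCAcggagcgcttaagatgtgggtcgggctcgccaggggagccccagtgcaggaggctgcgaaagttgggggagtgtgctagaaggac
Klf4 promoter (chr4:55532426-55532725, minus strand): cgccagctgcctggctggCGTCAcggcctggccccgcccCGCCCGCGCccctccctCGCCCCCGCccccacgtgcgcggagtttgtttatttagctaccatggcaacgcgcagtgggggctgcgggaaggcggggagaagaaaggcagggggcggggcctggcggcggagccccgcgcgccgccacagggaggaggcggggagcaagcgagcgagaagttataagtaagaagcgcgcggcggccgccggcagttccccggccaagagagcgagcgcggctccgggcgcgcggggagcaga
RefSeq held such a promoter for 8 of the 10 genes. The core TGACG, searched on both strands, was found in 5 of the 8, namely Fos, Fosb, Junb, Klf4 and Nr4a1, and in 20.8% of 32851 mouse promoter windows of the same length. Nr4a1 had 4 copies, starting 233, 213, 69 and 40 bases before its start, and Fos had 2 copies. The EGR motif was found in Fosb, Fosl2, Klf4 and Nr4a1, and in 5.55% of all windows. No match to it overlapped a TGACG core in the sequences printed, while some overlapped the GC box GGGCGG, which was in 6 of the 8 windows and 35.7% of all. The AP-1 motif TGANTCA was in 0 of the 8 windows and in 7.81% of all. Only exact matches were counted, so the near match TGACATCA in the window of Jun was not. The CArG box, the motif of serum response factor, was likewise in 0 of the 8 and in 1.63% of all. The windows reach no further than 250 bases upstream, and Egr1 and Ier2 had none. Sites further out, or in those genes, were not searched. The window of Jund ends before the gene model that was counted begins. It is among the 8 and is not printed. In the transcripts, the AU-rich nonamer TTATTTATT, a signal for rapid mRNA decay, was present in Fos and Fosl2 and absent from the longest coding transcript of the other 8 genes. It was present in 7.98% of 21901 protein-coding genes.

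Total counts per library ran from 8037826 to 10702930. H3f4, the current symbol of H3t, had 0 counts in each deletion library and 356 to 571 counts in the WT libraries, which is at least 638-fold lower with a floor of 3 counts over the deletion libraries. Levels are given as CPM, counts scaled to a common library size, after TMM scaling, edgeR's default way of making libraries comparable, and fold changes are those of the deletion over WT. Testing 17038 genes at an adjusted p under 0.05 gave 38.4% of them as higher and 46.1% as lower in the deletion, so a call by itself is the usual outcome here. The germ cell markers were lower: 11 of 11 spermatid and 12 of 12 spermatocyte markers fell with TMM, and the summed level of the spermatid markers was 9.50 to 58.1 CPM in the deletion, against 18880 to 20510 CPM in WT. The 15 Sertoli and 14 Leydig cell markers were all higher, with summed levels of 4437 to 4577 CPM in the deletion against 938 to 1053 CPM in WT for Sertoli and of 3599 to 4072 CPM in the deletion against 691 to 785 CPM in WT for Leydig cells. All 13 macrophage markers rose too, with a median log2 change of 2.89, as did 8 of 12 endothelial, 7 of 8 myoid, 8 of 9 mesenchymal and 7 of 8 tested spermatogonial markers, while the neutrophil markers S100a8 and S100a9 were at 0 counts in all 6 libraries. The mitochondrial share of counts was 21.6% to 22.7% in the deletion and 5.59% to 6.44% in WT. The part of each of these shifts in the changes below was not tested.

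All 10 genes were called with TMM scaling. Jun, Junb, Jund, Fos, Fosl2, Egr1 and Ier2 rose and Fosb, Klf4 and Nr4a1 fell. The groups did not overlap for any of the 10, which held for 39.2% of all tested genes with the deletion above WT and for 46.7% with the deletion below. Fos reached the count minimum only in the deletion and Fosb only in WT, so the filter itself favoured a difference for both. Their lack of overlap, and their calls and p-values under any scaling, carry that selection. The calls were the same with upper-quartile factors (47.6% of all genes higher, 38.8% lower) and with no factor (49.2% and 37.7%), and with median-of-ratios factors (35.4% and 48.3%) Jund lost its call. Scaled to the level of Sertoli markers, only Fos stayed higher, and scaled to Leydig markers none of the 10 was called higher.

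**Figure D1:**
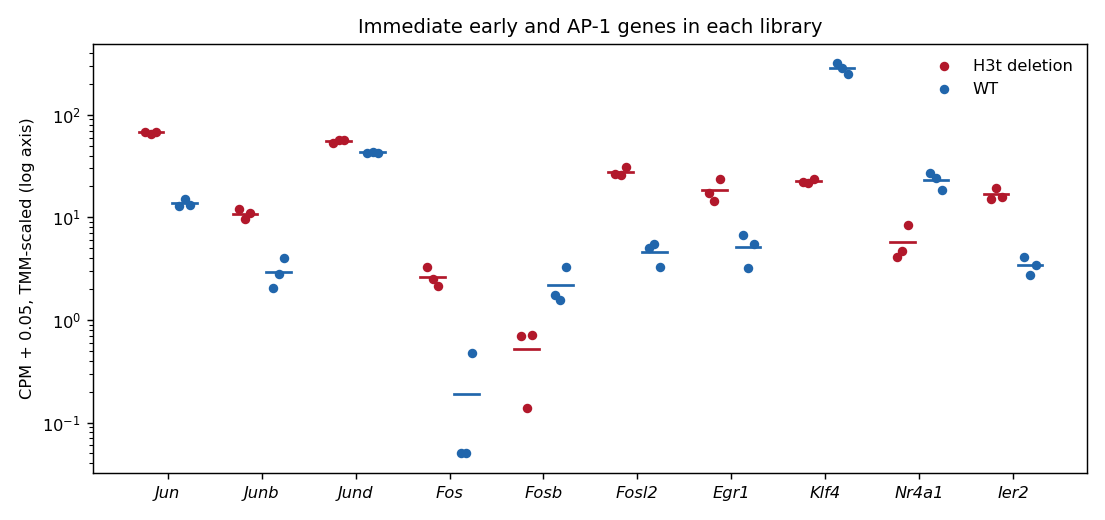
TMM-scaled CPM of the 10 genes, with 0.05 added to each value and a log axis, in 3 H3t deletion and 3 WT libraries. Points are libraries and lines are group means. The groups do not overlap for any gene, and Klf4 shows the widest gap among the genes that were lower.

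Jun, the founding AP-1 subunit (chromosome 4, 95049034 to 95052222, minus strand, GRCm38, 1 exon), had 68.1, 65.5 and 68.6 CPM in the deletion libraries, replicates 1 to 3 in order here and below, against 12.7, 15.2 and 13.1 CPM in the WT libraries. The deletion libraries lay close together and far above WT. Jun was 4.91-fold higher, with a log2 change of 2.30 ± 0.13 (standard error, SE) and an adjusted p of 1.50e-10 in edgeR. Junb (chromosome 8, 84974484 to 84978718, minus strand), whose protein often restrains JUN activity, had 11.9, 9.55 and 11.02 CPM in the deletion, against 2.02, 2.78 and 3.93 CPM in WT. Its log2 change was 1.89 ± 0.29 (SE, edgeR adjusted p = 2.17e-05). The 3' end of Junb overlaps Prdx2 on the other strand, and Prdx2 itself rose, with a log2 change of 2.40, so reads of the 2 genes are separable only where strand was used in counting.

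Jund (chromosome 8, 70698949 to 70700616, plus strand, 1 exon), a JUN protein found in most resting cells, had the smallest change of the 10 with TMM. It had 52.9, 56.5 and 57.0 CPM in the deletion, against 42.8, 43.8 and 42.0 CPM in WT. All deletion values lay above all WT values, but the rise was 1.29-fold, a log2 change of 0.37 ± 0.11 (SE, edgeR adjusted p = 0.00493). With median-of-ratios factors its log2 change was 0.20 and the call was lost (edgeR adjusted p = 0.111). Of its 50-mers, 48.3% also occur on either strand in transcripts of another gene. The antisense gene Gm11175 overlaps it, with 0 counts in WT and 2, 11 and 5 counts in the deletion.

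Fos (chromosome 12, 85473890 to 85477273, plus strand), the classic immediate early gene, was almost uncounted in WT. It had 35, 27 and 22 counts in the deletion libraries and 0, 0 and 3 counts in the WT libraries. These are 3.21, 2.43 and 2.09 CPM in the deletion against 0, 0 and 0.421 CPM in WT. The ratio of summed levels was 19.1, with an exact 95% counting interval of 6.32 to 94.5, and the edgeR adjusted p was 0.000172. The WT value rests on WT replicate 3: without it, WT stands at 0 and Fos was at least 12.96-fold higher, with 3 counts over the other WT libraries as the floor. Without WT replicate 2 the fitted log2 change was 3.46, against 4.12 with all libraries. Even in the deletion Fos stayed a low transcript.

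Fosl2 (chromosome 5, 32135801 to 32157842, plus strand), whose protein persists longer after a stimulus than FOS, was the FOS gene with the most counts in the deletion. It had 26.3, 26.0 and 30.9 CPM in the deletion, against 4.96, 5.45 and 3.23 CPM in WT. The log2 change was 2.60 ± 0.21 (SE), a 6.05-fold difference, with an edgeR adjusted p of 1.55e-08. Fosb (chromosome 7, 19302696 to 19310051, minus strand) went the other way. It had 7, 1 and 7 counts in the deletion and 11, 13 and 23 counts in WT. These are 0.642, 0.0901 and 0.665 CPM in the deletion against 1.71, 1.51 and 3.23 CPM in WT, a log2 change of -2.17 ± 0.62 (SE, edgeR adjusted p = 0.00427). Deletion replicate 2, with a single count, lay lowest, and the counting interval of the ratio of summed levels ran from 0.113 to 0.397.

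The make-up of the 6 AP-1 genes among the 10 can be compared without any scaling between libraries. It is given as each gene's share of their summed counts per kilobase (kb) of exon. Fosl1, a further FOS gene, is not among the 10 and was left out of the sum. Its log2 change was -2.18 with TMM, and its levels are given below. Jund made up 52.7% ± 1.81 in the deletion and 80.0% ± 1.72 in WT (SD, n = 3 each). Jun made up 33.5% ± 0.645 in the deletion and 13.3% ± 0.950 in WT. Junb took 7.46% ± 0.823 and Fosl2 4.53% ± 0.349 in the deletion, against 3.93% ± 1.29 and 1.46% ± 0.364 in WT. Fos took 1.74% ± 0.413 in the deletion and 0.187% ± 0.323 in WT, and Fosb 0.118% ± 0.0818 in the deletion and 1.07% ± 0.476 in WT. For each of the 6 shares the libraries separated by group. The exact permutation test, two-sided, gave p = 0.1 for each, the lowest value that 3 against 3 libraries allow, and 0.1 after adjustment over the 6. As shares of plain counts, with no division by length, the difference was 9.98 percentage points for Fosl2 in place of 3.07 and -2.97 in place of -0.956 for Fosb, and that of Junb was 2.20 with an exact permutation p of 0.2. The summed level of the 6 genes was 63.1 ± 1.33 CPM per kb in the deletion and 32.1 ± 0.860 CPM per kb in WT (SD, n = 3, exact permutation p = 0.1).

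**Figure D2:**
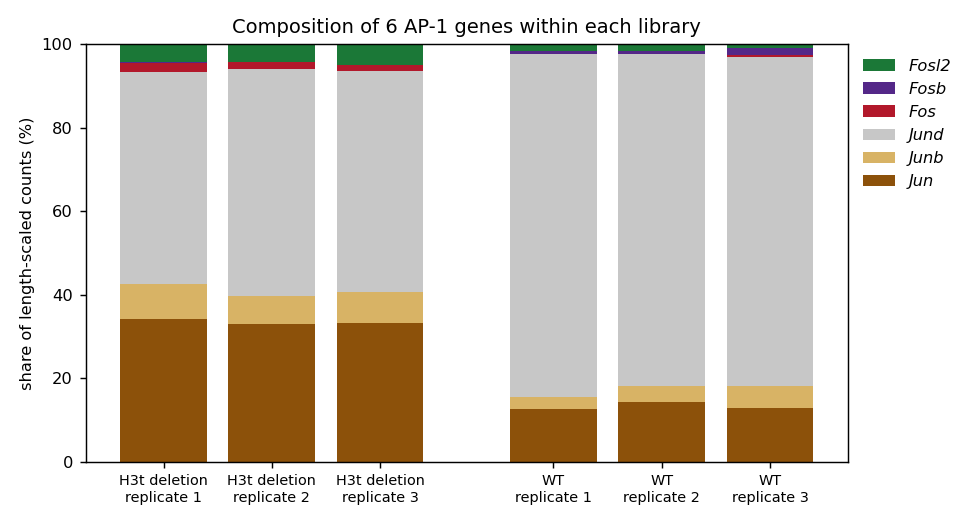
Share of each of 6 AP-1 genes in their summed length-scaled counts, in percent, for each H3t deletion and WT library. Jund fills 50.8% to 54.4% of the deletion bars and 78.7% to 82.0% of the WT bars, and Jun fills 33.0% to 34.2% of the deletion bars and 12.7% to 14.4% of the WT bars.

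Egr1 (chromosome 18, 34859823 to 34864984, plus strand), a growth- and hormone-induced activator, had 17.3, 14.2 and 23.5 CPM in the deletion, against 6.67, 3.13 and 5.48 CPM in WT. The libraries of both groups varied more than for Jun, without overlap, and the log2 change was 1.87 ± 0.28 (SE, edgeR adjusted p = 1.41e-05). Ier2 (chromosome 8, 84661331 to 84662852, minus strand, 1 exon) had 15.1, 19.5 and 15.7 CPM in the deletion, against 4.03, 2.67 and 3.37 CPM in WT. It was 5.04-fold higher, with a log2 change of 2.33 ± 0.25 (SE, edgeR adjusted p = 3.05e-07).

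Nr4a1 (chromosome 15, 101254269 to 101274795, plus strand) fell while the steroid synthesis genes rose with TMM. It had 4.04, 4.69 and 8.36 CPM in the deletion, against 26.8, 24.0 and 18.4 CPM in WT. Deletion replicate 3 lay highest of its group and still below every WT library. Nr4a1 was 4.05-fold lower, with a log2 change of -2.02 ± 0.26 (SE, edgeR adjusted p = 2.78e-06), or -2.40 without deletion replicate 3. All 11 of those genes rose, against 38.4% of all genes, with a median log2 change of 2.86. Cyp17a1, the hydroxylase and lyase on the way to androgens, averaged 1155 ± 132 CPM in the deletion, against 129 ± 19.0 CPM in WT (SD, n = 3), and Hsd3b6 and Hsd3b1 rose by 3.20 and 3.48 on the log2 scale. At Leydig level 1 of the 11 was higher, Hsd3b1, and 3 were lower, whereas Nr4a1 was lower under every scaling run. The 11 include Insl3, which codes for no steroid enzyme and is also among the Leydig markers that set the Leydig-level scaling. Of all genes, 0.552% were higher and 88.3% lower at Leydig level. Which cells held the WT counts of Nr4a1 was not tested.

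Klf4 (chromosome 4, 55527143 to 55532466, minus strand) had the most WT counts of the 10 genes and fell furthest. It had 22.2, 21.8 and 23.8 CPM in the deletion, against 316, 288 and 251.5 CPM in WT. It was 12.6-fold lower, with a log2 change of -3.66 ± 0.11 (SE, edgeR adjusted p = 7.86e-14). For comparison, the median log2 change was -9.53 over the 11 spermatid markers and -3.07 over the 12 spermatocyte markers. None of the 11 spermatid markers was at 0 in all deletion libraries. Unlike Fos and Fosb, Klf4 was well counted in both groups, at 242 to 251 counts per deletion library and 1790 to 2485 per WT library.

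Per kb of exon, the order of the 10 genes changed with genotype. In the deletion it was Jund at 33.2, Jun at 21.1, Ier2 at 11.01, Klf4 at 7.42, Junb at 4.71, Egr1 at 4.09, Fosl2 at 2.86, Nr4a1 at 1.62, Fos at 1.10 and Fosb at 0.0746 CPM per kb. In WT it was Klf4 at 93.5, Jund at 25.7, Nr4a1 at 6.58, Jun at 4.28, Ier2 at 2.21, Junb at 1.27, Egr1 at 1.14, Fosl2 at 0.470, Fosb at 0.344 and Fos at 0.0597 CPM per kb. Neighbours whose libraries overlapped were Junb with Egr1, Egr1 with Fosl2 and Nr4a1 with Fos in the deletion, and Junb with Egr1 and Fosl2 with Fosb in WT. Klf4 thus ranked 4 in the deletion and 1 in WT, and Jun ranked 2 in the deletion and 4 in WT.

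How a gene stood relative to Sertoli and Leydig cells was asked by scaling each library to an equal level of their markers. Scaling to other somatic markers was not run. With TMM the median log2 change was 1.39 for endothelial, 1.502 for myoid, 1.95 for mesenchymal and 2.89 for macrophage markers. It was 2.30 for Sertoli and 3.20 for Leydig markers. Jun, Fosl2 and Ier2 rose by more than the endothelial, myoid and mesenchymal medians and by less than the macrophage and Leydig medians. Against the Sertoli median, Fosl2 at 2.60 and Ier2 at 2.33 lay above, and Jun at 2.30 was level. Junb and Egr1 rose by more than the endothelial and myoid medians only. Fos rose by more and Jund by less than all of these medians. At Sertoli level, where the mean log2 CPM of 15 Sertoli markers is made equal, 1 of the 10 genes was higher and 4 were lower, against 4.14% of all genes higher and 75.9% lower. Fos was the gene that stayed higher, at a log2 change of 2.08 ± 0.91 (SE, edgeR adjusted p = 0.0448). Jund, Fosb, Klf4 and Nr4a1 were lower, with log2 changes of -1.78, -4.29, -5.81 and -4.17. Jun, Junb, Fosl2, Egr1 and Ier2 were not called, at 0.16 ± 0.17, -0.24 ± 0.33, 0.46 ± 0.25, -0.30 ± 0.32 and 0.18 ± 0.30 (SE), where the median over all genes was -2.33. At Leydig level none was higher and 7 were lower, against 0.552% and 88.3% of all genes. Jun, Junb and Egr1 then stood at -0.70, -1.11 and -1.17, and the genes not called were Fos, Fosl2 and Ier2, at 1.24, -0.40 and -0.67.

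**Figure D3:**
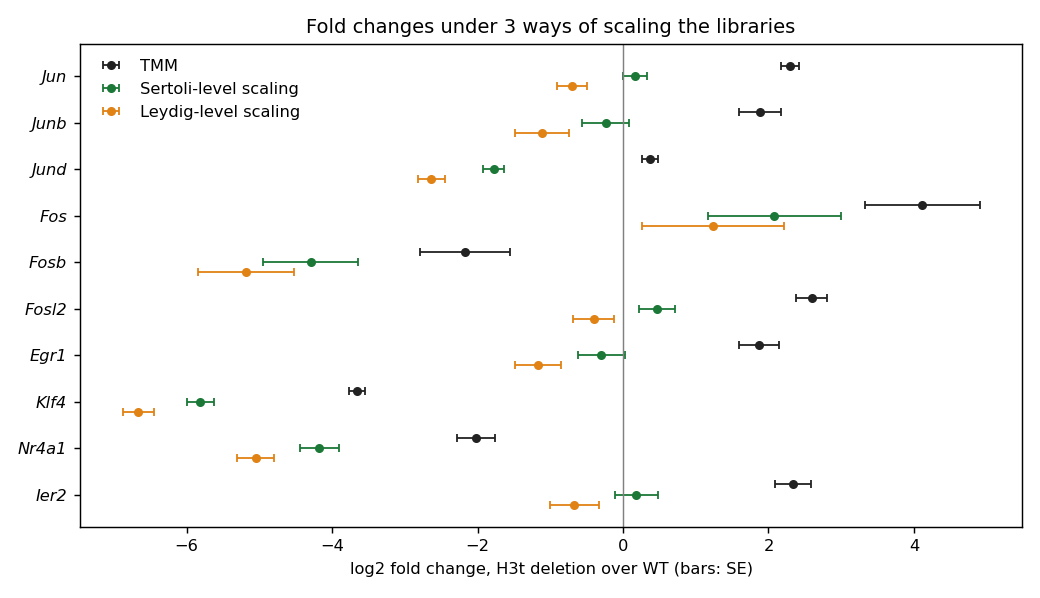
Log2 fold change of the deletion over WT for each gene, with its SE, under TMM and under scaling to equal Sertoli or Leydig marker levels. Fosb, Klf4 and Nr4a1 lie below 0 under all 3, Fos lies above 0 under all 3, and Jun, Junb, Fosl2, Egr1 and Ier2 lie within 0.5 of 0 at Sertoli level.

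Differences from the marker means within a library need no scaling between libraries. Klf4 minus the mean of the Sertoli markers was -1.77 ± 0.06 log2 CPM in the deletion and 4.02 ± 0.27 in WT (SD, n = 3). Nr4a1 minus the Leydig markers was -4.29 ± 0.36 in the deletion and 0.76 ± 0.24 in WT. Jun minus the Sertoli markers was -0.20 ± 0.05 in the deletion and -0.33 ± 0.07 in WT. Exact permutation, two-sided, gave each of these differences its lowest reachable p, 0.1, or 0.133 after adjustment over 20 comparisons. For Jun, whose difference was 0.14, it was 0.10 with the median of the Sertoli markers (exact permutation p = 0.3) and 0.03 with a prior count of 0.5 (exact permutation p = 0.6). Ier2 minus the Sertoli markers was -2.20 ± 0.18 in the deletion and -2.28 ± 0.42 in WT (exact permutation p = 1), so no difference was detected there. Fos minus the Sertoli markers was -4.83 ± 0.33 in the deletion and -5.53 ± 0.78 in WT (exact permutation p = 0.3), and minus the Leydig markers -5.33 ± 0.45 in the deletion and -5.17 ± 0.83 in WT (exact permutation p = 0.8). The difference from the Sertoli markers, 0.70, was 2.004 with a prior count of 0.5 (exact permutation p = 0.2) and 1.14 without WT replicate 3 (exact permutation p = 0.1, the lowest reachable), so its size depends on the prior count and on that library.

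In the FOS, EGR and Krüppel-like families, genes of both directions stood side by side, whereas all 3 JUN genes rose with TMM and both NR4A genes tested fell. Fosl1, Egr2, Egr4 and Nr4a3 are named because they belong to the families, after their values were seen. Of the FOS family, Fosl1 fell like Fosb, to 0.921 ± 0.237 CPM in the deletion against 4.20 ± 1.25 CPM in WT (SD, n = 3). Of the EGR family, Egr2 and Egr4 rose with Egr1, by 2.02 and 1.57 on the log2 scale, while Egr3 averaged 2.90 ± 0.556 CPM in the deletion, against 29.6 ± 10.2 CPM in WT. Of the Krüppel-like factors, Klf6 averaged 67.6 ± 3.69 CPM in the deletion, against 8.63 ± 2.92 CPM in WT, whereas Klf2 had a log2 change of -0.54, which was 0.10 with no scaling factor and not called there. Nr4a3 had a log2 change of -1.18 with TMM and -0.54 with no scaling factor, where it was not called.

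Ratios of counts within a library, which need no scaling, are given for pairs of relatives that were chosen after seeing that their levels moved apart, and so carry no test. Before each ratio was taken, 0.5 was added to each count. The log2 ratio of Fosl2 to Fosb was 6.10 ± 1.29 in the deletion and 1.10 ± 0.97 in WT (SD, n = 3). That of Egr1 to Egr3 was 2.63 ± 0.10 in the deletion and -2.54 ± 0.38 in WT. That of Klf6 to Klf4 was 1.58 ± 0.14 in the deletion and -5.09 ± 0.70 in WT, and that of Jun to Jund was 0.28 ± 0.08 in the deletion and -1.65 ± 0.11 in WT. That of Fos to Fosl1 was 1.44 ± 0.08 in the deletion and -4.99 ± 1.74 in WT, where Fos had 0, 0 and 3 counts. The difference between the groups, 6.44, was 5.69 with 1 added to each count, so its size depends on the added count.

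**Figure D4:**
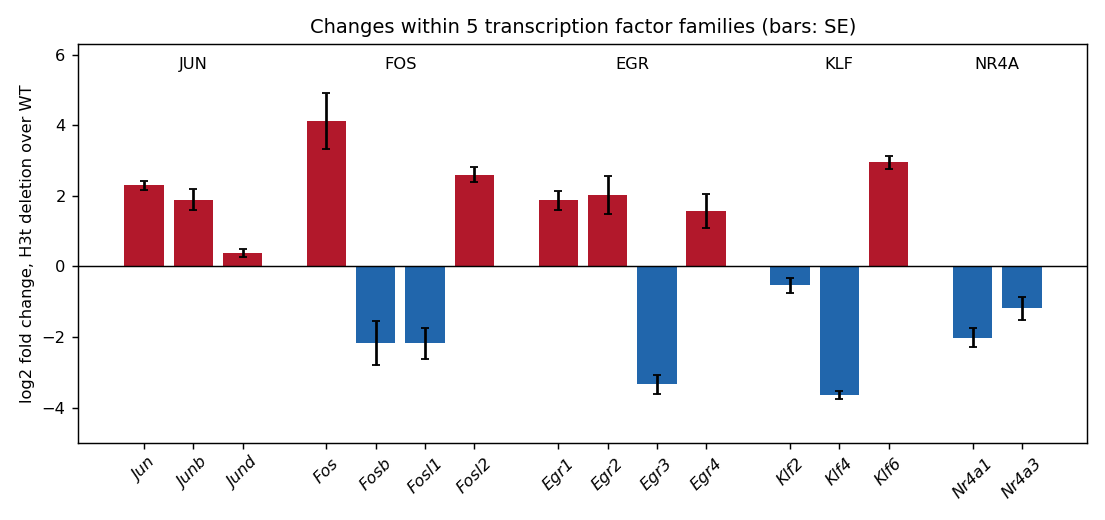
Log2 fold change of the deletion over WT with TMM scaling, with its SE, for genes of 5 transcription factor families. In the FOS, EGR and KLF families some genes rose and others fell, with Egr3 at -3.34 beside Egr1 at 1.87 and Klf4 at -3.66 beside Klf6 at 2.95.

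Among 20 other immediate early genes, 19 were tested, of which 12 rose and 7 fell with TMM, and 12 rose and 4 fell with no scaling factor. Their median log2 change was 1.57, where that of all genes was -0.19. At Sertoli level 3 of them were higher, Klf6, Myc and Ier3, and 8 were lower. Myc and Ier3 rose by 3.76 and 4.12 with TMM. Whether they reached the count minimum in WT is not shown here, so the filter may have favoured their calls. Of all genes, 38.4% were higher and 46.1% lower with TMM, and 49.2% and 37.7% with no scaling factor. At Sertoli level these shares were 4.14% and 75.9%. Arc, a synaptic immediate early gene, had the highest mean over all 6 libraries, through WT alone. It averaged 3.25 ± 1.03 CPM in the deletion, against 321 ± 24.8 CPM in WT (SD, n = 3). Ccn2, a matricellular target of serum response factor partners, rose by 0.75 on the log2 scale with TMM and was at -1.41 at Sertoli level. Btg2 and Zfp36, which speed mRNA decay, rose by 2.09 and 2.24, and Ier5 was at -1.25.

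The genes around AP-1 were mixed. Of 16 possible dimer partners 13 were tested, 11 rose and 1 fell with TMM, and 2 rose and 7 fell at Sertoli level. The shares over all genes were 38.4% higher and 46.1% lower with TMM, and 4.14% and 75.9% at Sertoli level. Nfe2l1 and Nfe2l2, stress-responsive leucine zipper factors, rose by 1.81 and 2.12, and Atf2, a JUN partner activated by JNK, was at -1.02. Of 12 factors that act on immediate early promoters 8 rose and 4 fell with TMM, those that fell being Crem, Atf1, Mrtfa and Srf. Crem, whose testis isoform activates genes of spermatids, averaged 6.96 ± 1.29 CPM in the deletion, against 315 ± 9.97 CPM in WT (SD, n = 3). Atf1 was at -1.17 and Mrtfb, a cofactor of serum response factor, rose by 1.03. Srf was at -0.50 with TMM and at 0.14, not called, with no scaling factor.

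Of 16 kinases tested 9 rose and 7 fell with TMM, or 9 and 4 with no scaling factor. Over all genes 38.4% rose and 46.1% fell with TMM, and 49.2% and 37.7% with no scaling factor. The JNK kinase Map2k7 was at -3.13, the JNK gene Mapk9 rose by 1.02, and Map2k2, of the ERK cascade, was at -1.11. Of 9 MAP kinase phosphatases, which switch those kinases off, 3 rose and 3 fell with TMM, or 6 and 1 with no scaling factor. Dusp6 rose by 1.60 and Dusp10 was at -1.76, while Dusp1 was at -0.71 with TMM and not called with no scaling factor. Of 10 proteins acting on AU-rich transcripts 5 rose and 3 fell with TMM, or 7 and 1 with no scaling factor. Zfp36l1 rose by 0.90, and Elavl1 and Tial1 were at -0.79 and -0.59 with TMM and at -0.14 and 0.05, not called, with no scaling factor. Of 8 binding inhibitors and degraders 6 rose and 2 fell with TMM, or 6 and 0 with no scaling factor. Nab1, a corepressor that binds EGR proteins, averaged 166 ± 9.51 CPM in the deletion, against 27.5 ± 3.72 CPM in WT (SD, n = 3), Itch rose by 0.40, and Fbxw7, which marks JUN for destruction, was at -0.47 with TMM and 0.17 with no scaling factor.

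Of 18 genes with known AP-1 or EGR1 control 12 were tested, 6 rose and 4 fell with TMM, and 1 was higher and 6 were lower at Sertoli level. The matching shares of all genes were 38.4% and 46.1% with TMM and 4.14% and 75.9% at Sertoli level. Mmp14, a membrane metalloprotease, and Nab2, an EGR1-induced corepressor of EGR1, rose by 2.46 and 1.35, and the metallothionein Mt1 was at -1.15. The gene higher at Sertoli level was Timp1, with 55, 86 and 81 counts in the deletion against 0, 3 and 2 counts in WT, which reached the count minimum only in the deletion. Of 11 heat and handling response genes 5 rose and 5 fell with TMM. With no scaling factor 7 rose and 3 fell, where 49.2% of all genes rose and 37.7% fell. Hspa8 rose by 1.62 and Hsp90aa1 was at -2.90. Hspa1a and Hspa1b, the heat-inducible HSP70 genes, averaged 1.85 ± 0.560 and 2.15 ± 0.209 CPM in the deletion, against 0.866 ± 0.356 and 0.592 ± 0.177 CPM in WT (SD, n = 3), and of the pair only Hspa1b was called with TMM. Both reached the count minimum only in the deletion, so the filter itself favoured a difference for them.

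Within the groups the 10 genes shared an order of libraries only in part. Deletion replicate 3 held the highest level of 7 genes, Jun, Jund, Fosb, Fosl2, Egr1, Klf4 and Nr4a1, replicate 1 of Junb and Fos, and replicate 2 of Ier2. Deletion replicate 2 held the lowest level of 6 genes, Jun, Junb, Fosb, Fosl2, Egr1 and Klf4. In WT, replicate 1 held the highest level of 4 genes and replicates 2 and 3 of 3 each. The share of the nuclear RNA Malat1 was 2.46%, 2.44% and 1.49% in deletion replicates 1, 2 and 3 and 0.201% to 0.211% in WT, and its part in the order of the deletion libraries was not tested. The 5 genes whose deviations from the group means ran closest to the mean of the 10, among 10076 genes of at least 10 CPM, were Pnrc1, Efcab2, Capzb, Cnpy3 and Sfr1, with a Pearson r of at least 0.989 over 6 libraries. With so many genes set against 6 values this is a description, and none of the 5 was on the list of other immediate early genes.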

How the data were processed

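Per the labels' protocols, the 6 libraries were made from testis section RNA with a SMART-Seq kit that keeps strand. The deposited values are raw counts of reads per Ensembl gene, made by the authors with Trim Galore, HISAT2 on GRCm38 and featureCounts, per the submitters' processing notes. The tool versions, the annotation release and whether strand was used in counting were not stated there. Overlapping genes may therefore share or lose reads. Coordinates and exon lengths are from GENCODE M21, which holds all 54100 genes of the table, and promoters from RefSeq.

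Counts were filtered with filterByExpr (17038 genes), scaled by TMM, and tested with the edgeR 4.0.16 quasi-likelihood test in R 4.3.3, with Benjamini-Hochberg adjustment over all tested genes at 0.05. SEs were taken as the log2 change over the root of the F statistic. A prior count of 2 entered log2 CPM values. Single values were compared by exact permutation, two-sided. Deletion counts of 0 were bounded by a floor of 3 counts, and floors and intervals cover counting error only. Separate animals are shown by nothing except a differing mouse number per library, so p-values cover only the spread among these libraries, which may be technical. No pair of libraries agreed within sampling noise (chi-square per degree of freedom at least 4.75). The steps were tested on simulated counts in which few genes changed, equally in both directions. Such counts cannot show how TMM scaling performs where most genes differ, as they do here. DESeq2 1.42.0 and limma 3.58.1 were alternatives.

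The 10 genes and all lists were chosen with earlier results of these data known. Named were the 10 genes, the 8 most abundant other immediate early genes, up to 3 called genes with the highest mean CPM from each further list, genes of counts of 5 or fewer, and H3f4. Chosen after their values were seen were Fosl1, Egr2, Egr4, Nr4a3, Hspa1a, Hspa1b, Malat1, Prdx2, Gm11175 and the pairs set as ratios. Of the listed names, 5 were matched by synonym. The value of 1 gene that this rule names is not reported here.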

Additional observations from a re-analysis of the deposited data

How the results depend on the processing

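No paired analysis was possible because the labels give the groups no shared replicate numbers and state no pairing, and the mouse numbers were not used as a block. Scaling mattered most. With TMM, all genes had a median log2 change of -0.19 and 45.4% of calls were higher. Median-of-ratios factors gave -0.36 and 42.3%, upper-quartile factors 0.35 and 55.1%, and no factor 0.45 and 56.6%. At Sertoli level 706 genes were higher and 12937 lower, against 6542 and 7861 with TMM, and at Leydig level 94 and 15049. Of the 10 genes, 1 was higher at Sertoli level, and 0 were higher and 7 lower at Leydig level. In the same order of scalings, Jun was at 0.16 and -0.70, Junb at -0.24 and -1.11, Jund at -1.78 and -2.63, Fosl2 at 0.46 and -0.40, Egr1 at -0.30 and -1.17, and Ier2 at 0.18 and -0.67, and Fos was at 1.24 at Leydig level. Jund lost its call at 0.20 with median-of-ratios factors and at 0.20 with DESeq2, and at 0.37 when tested against a 1.5-fold change. Fos minus the Leydig markers, at -0.16, ran from -0.46 to 0.31 with a library left out and was 1.19 with a prior count of 0.5. Ier2 minus the Sertoli markers, at 0.08, ran from -0.13 to 0.29. Fosb, Klf4 and Nr4a1 were lower in every setting run. Leaving out a library changed no call of the 10 genes. The counts of Fos in WT and of Fosb in the deletion limit their fold changes. The causes of these shifts were not tested.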
